A study of Arabidopsis thaliana with 10 samples.

Results

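The Aux/IAA proteins are short-lived repressors of the auxin response, and the 10 genes described here, IAA1, IAA2, IAA3, IAA5, IAA6, IAA7, IAA14, IAA17, IAA19 and IAA29, were taken by locus from the 32753 loci of the deposited table, with the transcripts of a locus summed. All 10 were in the table and all 10 passed the filter on low values. The libraries were made from polyadenylated RNA of whole Arabidopsis thaliana seedlings that were 5 days old and had been raised in darkness. Every group, the mock groups included, had 2 µM of the compound that the labels call PPZ in its medium. Wild-type Col-0 received either mock or rapamycin at 100 nM, a macrolide that joins FKBP proteins to FRB domains. The line RiD-BRI1/BAK1, here RiD, received mock, the same dose of rapamycin, or brassinolide at 100 nM, a steroid hormone that promotes cell elongation. BRI1 and BAK1 are the brassinosteroid receptor kinase and its co-receptor. Each of the 5 groups held 2 libraries. The labels give neither the promoter of the RiD transgenes, nor the number of independent lines, nor how many seedlings went into a library.

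At low auxin an Aux/IAA protein binds auxin response factors (ARFs) on their target genes and recruits TOPLESS co-repressors. Auxin joins the Aux/IAA protein to a TIR1/AFB F-box protein, which leads to its degradation and frees the ARF to act. Many Aux/IAA genes are themselves ARF targets, so that their transcripts rise with auxin and feed back on the response, and in seedlings auxin and brassinosteroid act together on the elongation of the hypocotyl.

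The stretch that TIR1/AFB proteins recognise, the degron, is the feature that makes these proteins auxin-sensitive, and its codons are shown for all 10 genes because each of the 10 holds it. Each coding sequence, from RefSeq on TAIR10.1, held the 12-base pattern GGNTGGCCNCCN in frame exactly 1 time. It is given in capitals, 5′ to 3′ on the coding strand, with 12 bases on each side.
IAA1: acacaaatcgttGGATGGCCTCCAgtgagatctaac
IAA2: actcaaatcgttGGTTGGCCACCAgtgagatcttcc
IAA3: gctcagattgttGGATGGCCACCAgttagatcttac
IAA5: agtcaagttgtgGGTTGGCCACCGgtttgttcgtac
IAA6: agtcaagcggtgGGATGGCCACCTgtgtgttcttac
IAA7: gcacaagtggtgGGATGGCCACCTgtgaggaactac
IAA14: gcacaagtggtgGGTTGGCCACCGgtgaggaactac
IAA17: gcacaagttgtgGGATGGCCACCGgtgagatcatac
IAA19: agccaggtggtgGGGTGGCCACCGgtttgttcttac
IAA29: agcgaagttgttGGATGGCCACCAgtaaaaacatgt
Aligned over their coding sequences, IAA7 and IAA14 were the closest pair, with 85.4% identical bases, followed by IAA1 and IAA2 with 84.5%, IAA14 and IAA17 with 76.8%, and IAA6 and IAA19 with 76.3%. How reads were shared between such copies is not known.

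In the RiD line rapamycin raised the transcripts of IAA6, IAA19, IAA3, IAA14 and IAA1 and lowered those of IAA29 and IAA7. The rises ran from 1.72-fold (IAA1) to 13.5-fold (IAA6), and the falls were 2.22-fold (IAA7) and 4.61-fold (IAA29). Of these genes brassinolide raised IAA6 and IAA19. In Col-0 no Aux/IAA gene was called between rapamycin and mock. A gene is called here when its limma p-value, adjusted by Benjamini-Hochberg over 23285 tested loci, lies under 0.05. Levels are normalized counts, the authors' read counts after scaling, and differences are on the log2(normalized counts + 1) scale.

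Library totals were 23244655 to 26987555 normalized counts. From the value of 1 read in each column the libraries numbered 1 were estimated at 18.4 to 19.9 M reads and those numbered 2 at 29.2 to 33.9 M, and 3 reads corresponded to 2.19 to 4.18 normalized counts. Number and depth thus went together, and differences within each number are given beside the RiD responses of the genes called there. With the number as a block in the model, many more loci passed the test, and its adjusted p-values are given for the Aux/IAA genes whose call it changed. Markers of roots and of shoots were both present. The summed level of 8 root markers was 2981 to 3812 normalized counts in both Col-0 groups and RiD mock, 6653 to 7241 in RiD rapamycin and 4741 to 4960.4 in RiD brassinolide. Most of the root sum under rapamycin came from CASP1, whose mean was 4511 normalized counts there and 1215 for the RiD mock libraries. Of these 8 markers 3 rose in RiD rapamycin against RiD mock (NRT2.1, CASP1 and MYB36) and 3 fell (COBL9, EXPA7 and RHD6). In that comparison, also used for the shoot markers below, 12.3% of all tested loci were called higher and 9.72% lower. NRT2.1 was at 0 in both RiD mock libraries and EXPA7 in both RiD brassinolide libraries. The summed level of 8 shoot and epidermis markers was 219756 to 270639 in Col-0 and RiD mock, 144723 to 182189 in RiD rapamycin and 182808 to 196562 in RiD brassinolide. RBCS1A made up most of these sums, with means of 171165 in RiD mock and 116654 in RiD rapamycin. RiD rapamycin had TMM and ATML1 higher and PORA and LHCB1.1 lower than RiD mock, and 4 of the 8 differences were positive. LHCB1.1 had 3080 and 1620 in RiD mock and 376 and 221 in RiD rapamycin, and its Col-0 libraries ranged from 207 to 561. The root sum thus mainly reflects CASP1 and the shoot sum RBCS1A and PORA, while other markers of each list went the other way. These marker shifts accompany every RiD response below, and their part in it was not tested. In whole seedlings, fewer cells of a type and less RNA per cell cannot be told apart.

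**Figure D1:**
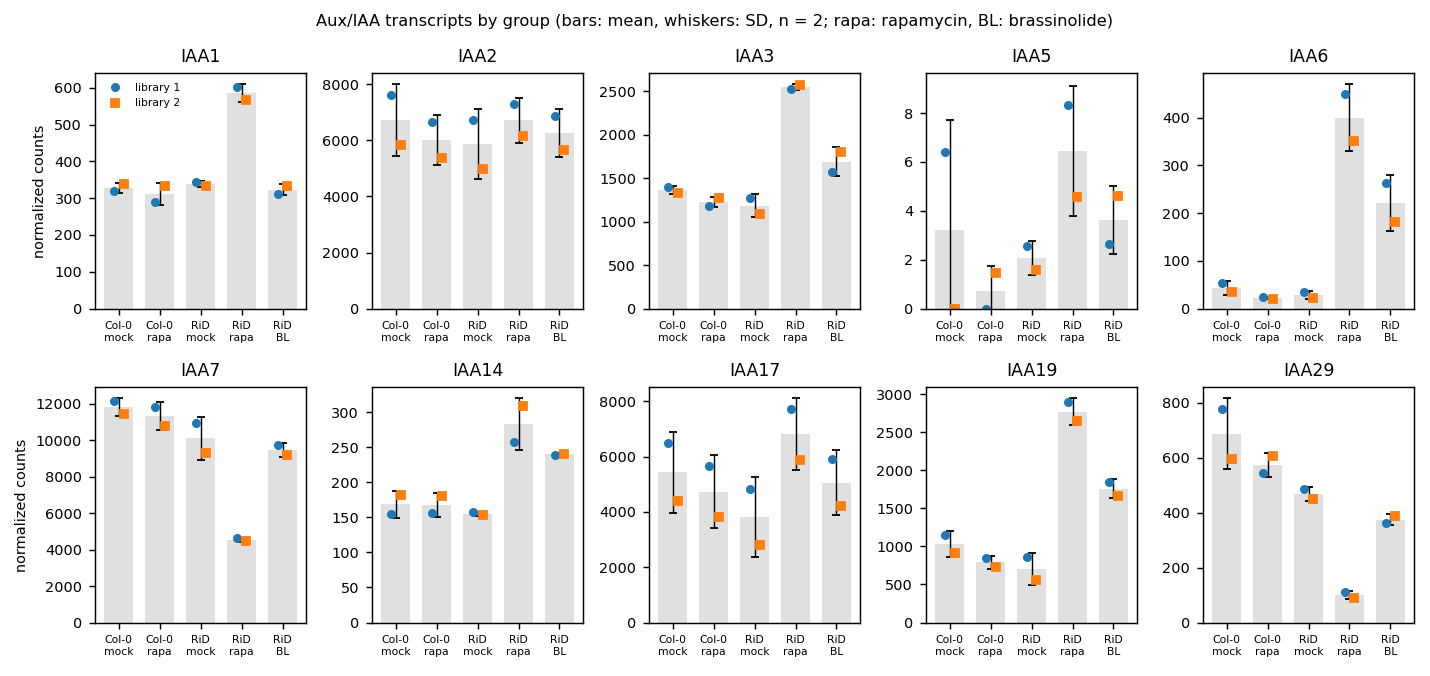
Normalized counts of the 10 Aux/IAA genes in each library, by group (bars show the mean and whiskers the SD of 2 libraries, circles are libraries numbered 1 and squares those numbered 2). RiD rapamycin stands above the other groups for IAA6 and IAA19 and below them for IAA7 and IAA29, while for IAA2 and IAA17 the circle lies above the square in all 5 groups.

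IAA6 (AT1G52830, chromosome 1, bases 19672476 to 19673652 of TAIR10.1), known from the dominant mutant shy1 of photomorphogenesis, showed the widest response of the 10. It was at 34.8 and 23.2 normalized counts in the RiD mock libraries and at 449 and 351 in the RiD rapamycin libraries, with 263 and 180.4 in RiD brassinolide. The Col-0 libraries had 54.5 and 33.7 with mock and 24.2 and 21.0 with rapamycin. All 4 libraries of the hormone-treated and rapamycin-treated RiD seedlings thus lay above all 6 others. The log2 difference between RiD rapamycin and RiD mock was 3.76 (SE 0.33, adjusted p = 0.000201), and 3.65 and 3.86 within numbers 1 and 2. In that comparison 22.0% of all tested loci were called, 12.3% higher and 9.72% lower, against 5 of 10 Aux/IAA genes higher and 2 lower. With brassinolide the difference was 2.90 (SE 0.33, adjusted p = 0.00216), and 2.88 and 2.91 within the numbers, in a comparison where 6.76% of loci were called, 4.63% higher and 2.13% lower.

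IAA19 (AT3G15540, chromosome 3, bases 5264001 to 5265695), known as MSG2 and required for hypocotyl tropisms, was also highest in RiD rapamycin and next in RiD brassinolide, at a higher level than IAA6. The RiD mock libraries had 858 and 554 normalized counts, the RiD rapamycin libraries 2895 and 2649, and the RiD brassinolide libraries 1853 and 1669.5. Col-0 libraries had 1151 and 913 with mock and 853 and 733 with rapamycin. The groups given rapamycin and brassinolide in RiD did not overlap with any other group. The log2 difference from RiD mock was 2.00 (SE 0.23, adjusted p = 0.000638) with rapamycin and 1.35 (SE 0.23, adjusted p = 0.0111) with brassinolide. Within numbers 1 and 2 it was 1.75 and 2.25 with rapamycin and 1.11 and 1.59 with brassinolide. The brassinolide call was lost without RiD mock 2 (adjusted p = 0.0514) and without RiD brassinolide 1 (adjusted p = 0.0992).

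The promoters of IAA6 and IAA19 are shown because these were the genes raised most by rapamycin and both of those raised by brassinolide. Each is 250 bases that end before the annotated gene start in RefSeq on TAIR10.1, on the strand of the gene. Capitals mark matches, on either strand, to TGTCTC and TGTCGG (auxin response elements, bound by ARFs), CACGTG (the G-box) and CGTGTG or CGTGCG (the BZR1 element of brassinosteroid-regulated genes).
IAA6, chr1:19673653-19673902, minus strand: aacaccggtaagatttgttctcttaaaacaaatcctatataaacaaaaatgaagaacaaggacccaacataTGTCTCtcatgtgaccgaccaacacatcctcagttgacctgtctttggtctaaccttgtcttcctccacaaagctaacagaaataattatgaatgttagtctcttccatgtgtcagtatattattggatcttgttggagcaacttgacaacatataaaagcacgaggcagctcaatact
IAA19, chr3:5263751-5264000, plus strand: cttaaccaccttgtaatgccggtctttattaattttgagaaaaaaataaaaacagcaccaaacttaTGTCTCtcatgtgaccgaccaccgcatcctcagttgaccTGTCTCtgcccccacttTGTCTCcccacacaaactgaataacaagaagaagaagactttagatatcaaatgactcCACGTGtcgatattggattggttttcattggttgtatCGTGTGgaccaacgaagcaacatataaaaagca
Both hold the unbroken run taTGTCTCtcatgtgaccgacca of 23 bases, at 181 to 159 bases before the start in IAA6 and 186 to 164 in IAA19. A further run of 20 bases, catcctcagttgacctgtct, lies at 155 to 136 in IAA6 and 160 to 141 in IAA19. In the other 44 pairs of promoters of the 10 genes the longest shared run was 7 to 13 bases. TGTCTC occurred 3 times in the IAA19 window and 1 time in that of IAA6, and also in those of IAA1 and IAA5, so in 4 of 10 windows, against 10.9% of 27443 windows of protein-coding genes. TGTCGG was in 2 of 10 (IAA1 and IAA5) and 4.16% of all, CACGTG in 2 (IAA7 and IAA19) and 6.49%, CGTGTG in 2 (IAA1 and IAA19) and 5.37%, and CGTGCG in 0 and 1.57%. A match describes the letters of the window and no binding was measured here.

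IAA3 (AT1G04240, SHY2, a regulator of root growth at the crossing of auxin and cytokinin) in RiD had 1278 and 1089.8 normalized counts with mock, 2530.0 and 2572 with rapamycin and 1573 and 1807 with brassinolide. Its Col-0 libraries lay between 1185 and 1395. The RiD rapamycin libraries were the highest of the 10 and those of RiD brassinolide the next. The rapamycin difference was 1.11 (SE 0.15, adjusted p = 0.00134), and 0.98 and 1.24 within numbers 1 and 2. That of brassinolide was 0.51 (SE 0.15, adjusted p = 0.085, with the block 0.00202), and 0.30 and 0.73 within the numbers. IAA3 overlaps AT1G04230 on the other strand, which averaged 253 normalized counts in RiD mock and 191 in RiD rapamycin, and whether reads were counted by strand is not stated in the labels.

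IAA14 (AT4G14550, SLR, a repressor of lateral root initiation) in RiD had 157 and 153 normalized counts with mock, 257 and 309 with rapamycin and 238 and 241 with brassinolide, against 155 to 183 in Col-0. Its rapamycin difference was 0.86 (SE 0.18, adjusted p = 0.01; 0.71 and 1.01 within numbers 1 and 2), a call lost without RiD mock 2 (adjusted p = 0.0517) and without RiD rapamycin 2 (adjusted p = 0.0747). The brassinolide difference of 0.63 (SE 0.18; 0.60 and 0.65 within the numbers) had an adjusted p of 0.0798, and 0.00476 with the block. IAA1 (AT4G14560, AXR5, an early auxin-induced gene) in RiD had 344 and 334 with mock, 602 and 568 with rapamycin, and 312 and 333 with brassinolide. Col-0 libraries had 290.0 to 337, so that RiD rapamycin alone stood apart. Its rapamycin difference was 0.78 (SE 0.14, adjusted p = 0.00622) and its brassinolide difference -0.07 (SE 0.14, adjusted p = 0.858). Within numbers 1 and 2 the rapamycin difference was 0.80 and 0.76.

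IAA29 (AT4G32280, chromosome 4, bases 15583332 to 15584903), a target of the PIF factors that promote growth in shade and warmth, fell most. The RiD mock libraries had 486 and 449 normalized counts, the RiD rapamycin libraries 111 and 91.0, and the RiD brassinolide libraries 361 and 389. In Col-0 there were 779 and 597 with mock and 544 and 606 with rapamycin. The rapamycin libraries of RiD lay far below the other 8, and the next lowest were those of brassinolide. The difference was -2.20 (SE 0.18, adjusted p = 0.000162) with rapamycin and -0.32 (SE 0.18, adjusted p = 0.406) with brassinolide. Within numbers 1 and 2 the rapamycin difference was -2.12 and -2.29. The IAA29 window of 250 bases held 0 of the motifs searched.

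IAA7 (AT3G23050, AXR2, a repressor with roles in gravitropism and hypocotyl growth) was the most abundant of the 10 in mock seedlings. In RiD it had 10947 and 9278 normalized counts with mock, 4628 and 4459 with rapamycin and 9728 and 9178 with brassinolide, against 10778 to 12155 in Col-0. RiD rapamycin was the group that stood apart from the other 4. The difference was -1.15 (SE 0.15, adjusted p = 0.00109) with rapamycin and -0.09 (SE 0.15, adjusted p = 0.807) with brassinolide. Within numbers 1 and 2 the rapamycin difference was -1.24 and -1.06. IAA7 was the 1 gene of the 10 with more than 1 transcript in the table, and AT3G23050.1 made up 88.0 to 99.0% of its locus. AT3G23050.2 had 178 and 403 normalized counts in RiD mock and 86.2 and 534 in RiD rapamycin, so that its groups overlapped.

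IAA17, IAA2 and IAA5 were not called in either RiD response. IAA17 (AT1G04250, AXR3, a repressor of root and root hair growth when stabilised) had 4833 and 2802 normalized counts with mock in RiD, 7723 and 5883 with rapamycin and 5903 and 4219 with brassinolide, and its Col-0 libraries ranged from 3802 to 6473. The RiD rapamycin libraries lay above both RiD mock libraries, while those of brassinolide overlapped with both groups. In each group library 1 exceeded library 2, by 0.39 to 0.79 on the log2 scale. The rapamycin difference was 0.87 (SE 0.34, adjusted p = 0.108), it was 0.68 within number 1 and 1.07 within number 2, and with the block the adjusted p was 3.36e-06. For brassinolide it was 0.44 (SE 0.34, adjusted p = 0.564), and 0.00343 with the block.

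IAA2 (AT3G23030, whose promoter is widely used as an auxin reporter) in RiD had 6740.2 and 4988 normalized counts with mock, 7281 and 6147 with rapamycin and 6879 and 5661 with brassinolide. These groups overlapped with each other and with the Col-0 range of 5381 to 7622. Its differences were 0.21 (SE 0.22, adjusted p = 0.573) and 0.11 (SE 0.22, adjusted p = 0.866). IAA5 (AT1G15580, an early auxin-induced gene) was close to the depth limit, in RiD with 2.58 and 1.59 for mock, 8.33 and 4.58 for rapamycin, 2.63 and 4.62 for brassinolide and 0 to 6.40 in Col-0. Both RiD rapamycin libraries exceeded the level of 3 reads and both RiD mock libraries were under it, and the difference was not called (adjusted p = 0.386). IAA5 overlaps CYCA2;3 on the other strand, which averaged 206 normalized counts in RiD mock.

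**Figure D2:**
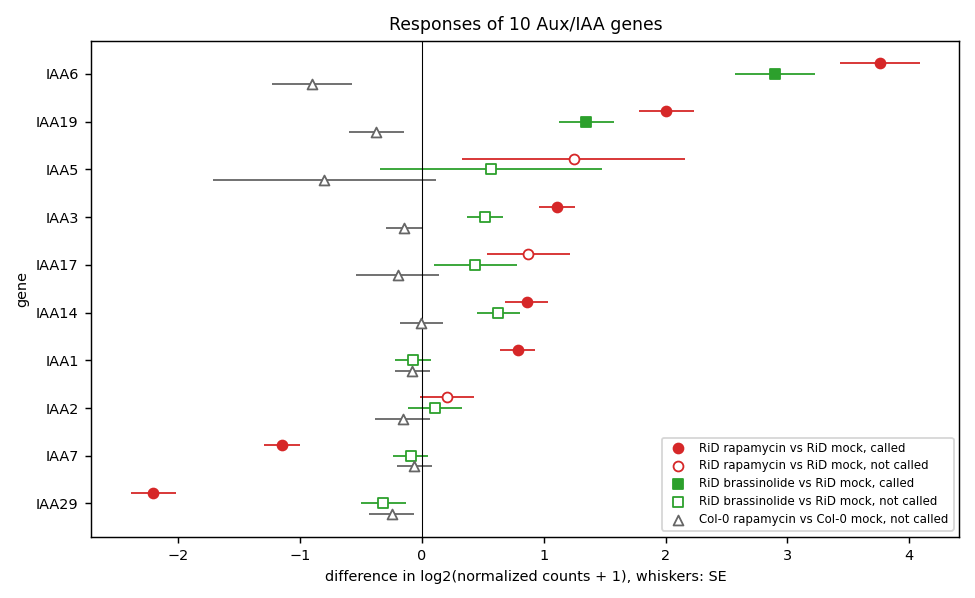
Differences in log2(normalized counts + 1), with SE, for the 10 Aux/IAA genes in 3 comparisons (filled symbols passed the test, open symbols did not). Rapamycin in RiD runs from -2.20 for IAA29 to 3.76 for IAA6, brassinolide in RiD passes for IAA6 and IAA19, and rapamycin in Col-0 passes for 0 of 10.

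Over the 10 genes the median log2 difference was 0.87 with rapamycin and 0.48 with brassinolide, beside -0.03 and -0.02 over all tested loci. Both responses were measured from the same RiD mock libraries, so they share the values of those libraries. With the block 6 genes were higher and 2 lower with rapamycin, where 24.1% of all loci were called higher and 24.1% lower, and 5 were higher and 0 lower with brassinolide, where 14.8% and 12.8% of loci were. The count of 2 with brassinolide was 1 without RiD mock 2 or RiD brassinolide 1.

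The direct comparison of rapamycin with brassinolide in RiD called 3 of the 10 genes, 1 higher (1.03% of all loci) and 2 lower (1.53%), against 2.56% of loci in either direction. IAA29 was 3.70-fold lower with rapamycin (log2 difference -1.89, SE 0.18, adjusted p = 0.00189). IAA7 was 2.08-fold lower (-1.06, SE 0.15, adjusted p = 0.0106) and IAA1 1.81-fold higher (0.86, SE 0.14, adjusted p = 0.023). The calls of IAA7 and IAA1 were lost without RiD rapamycin 1, RiD rapamycin 2, RiD brassinolide 1 or RiD brassinolide 2. Over the fits without 1 library the log2 difference ran from -1.10 to -1.01 for IAA7 and from 0.81 to 0.90 for IAA1. IAA6 and IAA19, the genes that both treatments raised, differed by 0.86 (SE 0.33, adjusted p = 0.253) and 0.65 (SE 0.23, adjusted p = 0.207), with all rapamycin libraries above all brassinolide libraries. With the block their adjusted p was 0.00929 and 0.00105, that of IAA3 was 0.00102 (without it 0.0835) and that of IAA17 was 0.00541 (without it 0.664). In that fit 5 of 10 genes were higher and 2 lower, where 10.9% and 9.09% of all loci were.

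Col-0 seedlings, which have no RiD construct, tested whether rapamycin acted on these genes without it. The log2 differences between rapamycin and mock in Col-0 ran from -0.90 for IAA6 to -0.01 for IAA14, and 0 of 10 genes were called by limma, as were 0.0% of all loci. With an unadjusted p under 0.05 there was 1 gene, beside 2.39% of all loci, and with the block 0 genes were called, where 0.185% of all loci were. The same comparison between the mock groups of both lines, RiD minus Col-0, gave -0.58 for IAA6 to 0.16 for IAA5. Only 2 of the 10 differences were positive, and the median was -0.22. By limma 0 of 10 were called (0.0% of all loci), with 2 genes at an unadjusted p under 0.05 (2.98% of all loci). With the block 1 gene was called (0.356% of loci), IAA17 at -0.53 (adjusted p = 0.0293). In that fit 6 genes had an unadjusted p under 0.05, beside 11.5% of all loci.

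The rapamycin response differed between RiD and Col-0 for 6 of the 10 genes, 4 with a higher difference in RiD (6.49% of all loci) and 2 with a lower one (3.56%), against 10.1% in either direction. The difference of the responses was 4.66 (SE 0.47, adjusted p = 0.00103) for IAA6, 2.38 (SE 0.32, adjusted p = 0.00354) for IAA19, 1.26 (SE 0.21, adjusted p = 0.00819) for IAA3 and -1.96 (SE 0.26, adjusted p = 0.0033) for IAA29. For IAA7 it was -1.09 (SE 0.21, adjusted p = 0.0143), a call lost without Col-0 mock 2 (adjusted p = 0.0567), Col-0 rapamycin 1 (0.0525), RiD mock 1 (0.0533) or RiD rapamycin 2 (0.0556). For IAA1 it was 0.86 (SE 0.20, adjusted p = 0.0344), and the call was lost in all 10 fits that left out 1 library, with adjusted p-values of 0.0586 to 0.108. With the block 7 genes had a higher and 2 a lower difference in RiD (18.2% and 15.7% of all loci), which added IAA2 (adjusted p = 0.0288, without the block 0.559), IAA14 (0.00437, without it 0.0666) and IAA17 (2.83e-05, without it 0.225). Under rapamycin the lines themselves differed for 7 of 10 genes, the 5 raised and the 2 lowered in RiD, against 26.4% of all loci, 14.6% higher and 11.8% lower. Their log2 differences, RiD minus Col-0, ran from -2.50 (IAA29) to 4.08 (IAA6), and the call of IAA14 (0.75, SE 0.18, adjusted p = 0.0159) was lost without Col-0 rapamycin 1 (adjusted p = 0.0885) or RiD rapamycin 2 (0.107). IAA5 had an adjusted p of 0.114 there with all libraries and was called without Col-0 mock 1 or Col-0 mock 2. Those libraries are not part of this comparison, and its log2 difference stayed at 2.21. Both Col-0 rapamycin libraries of IAA5 (0 and 1.44 normalized counts) were under the level of 3 reads. With the block 7 genes were higher and 2 lower in RiD (27.1% and 25.3% of all loci), which added IAA17 (adjusted p = 0.000274, without the block 0.292) and IAA5 (0.0356).

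With each level divided by transcript length, the rank of the genes shifted. In RiD mock IAA7 led with 7653 ± 849 normalized counts per kb (SD, n = 2), followed by IAA2 with 5532 ± 1169, IAA17 with 2898 ± 1090.5, IAA3 with 996 ± 112 and IAA19 with 699 ± 212. IAA29 (399 ± 22.4), IAA1 (358 ± 7.83), IAA14 (89.9 ± 1.88), IAA6 (33.8 ± 9.62) and IAA5 (2.67 ± 0.889) came after, and no neighbours in this order overlapped. In RiD rapamycin IAA2 (6334 ± 757) and IAA17 (5165 ± 988) stood at the top with overlapping libraries. IAA7 was at 3479 ± 17.1, IAA19 at 2745 ± 172 and IAA3 at 2146 ± 25.1 normalized counts per kb. IAA6, at 467 ± 81.0, had passed IAA14 and IAA29, and IAA29, at 86.2 ± 12.2, had dropped below all but IAA5. The plain sum of the 10 genes was 25681 and 19673 normalized counts in RiD mock and 26485 and 23033 in RiD rapamycin, so that these groups overlapped. Within that sum IAA7 held 42.6 and 47.2% in RiD mock and 17.5 and 19.4% in RiD rapamycin, and IAA19 went from 3.34 and 2.82% to 10.9 and 11.5%.

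**Figure D3:**
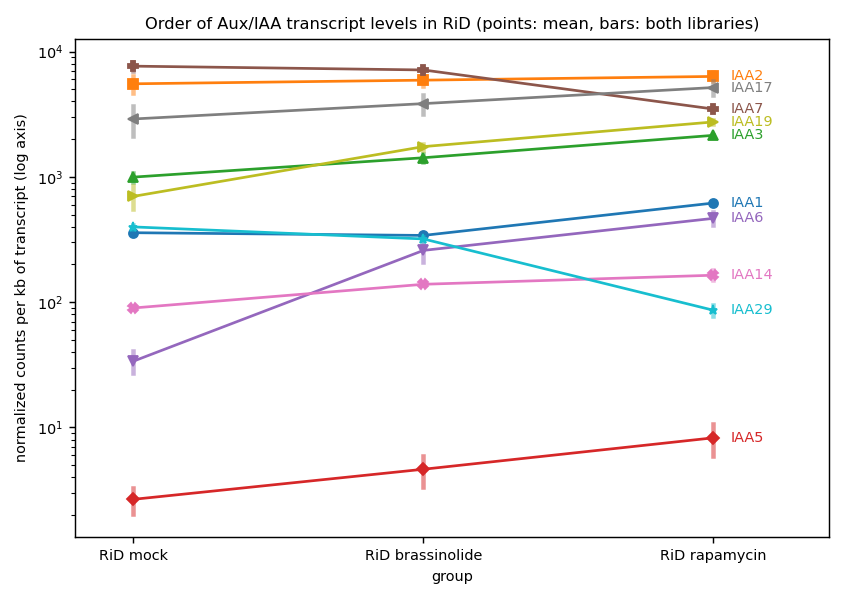
Mean level per kb of transcript of the 10 genes in the RiD groups, on a log axis (points are means, bars span both libraries of a group). IAA7 leads with mock at 7653 normalized counts per kb and stands below IAA2 and IAA17 with rapamycin, while IAA6 lies below IAA29 with mock and above it with rapamycin.

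In the genome 6 of the 10 genes stood in neighbouring pairs, each transcribed outward from the gap between them, with 0 protein-coding genes in that gap. IAA3 and IAA17 are 6.39 kb apart on chromosome 1, IAA14 and IAA1 10.7 kb apart on chromosome 4, and IAA2 and IAA7 12.5 kb apart on chromosome 3. IAA14 and IAA1 were both called higher with rapamycin in RiD, at 0.86 and 0.78. IAA3 was called at 1.11. Its neighbour IAA17, at 0.87 with the wider SE of 0.34, was not called without the block (adjusted p = 0.108) and was with it (3.36e-06). IAA7 was called at -1.15 while IAA2 had 0.21.

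The loci whose log2 levels over the 10 libraries ran most like those of IAA19, among 16875 loci with a mean of at least 50, were KCS1 (AT1G01120, a fatty acid elongase of wax synthesis) at Pearson r = 0.992, CYP86B1 (AT5G23190, a fatty acid hydroxylase of suberin synthesis) at 0.988 and KDR (AT1G26945, a helix-loop-helix protein without DNA binding) at 0.986. KCS1 averaged 4056 normalized counts in RiD mock, 7048 in RiD brassinolide and 8821 in RiD rapamycin. Most like IAA29 were FC2 (AT2G30390, a ferrochelatase of heme synthesis) at 0.993, AT1G27030 at 0.992 and ACA1 (AT3G52720, an alpha carbonic anhydrase) at 0.991, and FC2 averaged 592, 498 and 280 in the same groups. These values describe likeness over libraries that share groups and replicate numbers, and they are given without a test.

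Of the 19 other Aux/IAA genes 18 were tested, and 2 were called higher and 2 lower with rapamycin in RiD, or 22.2% in a comparison that called 22.0% of all loci, with a median difference of 0.21. With the block that comparison called 24.1% of all loci higher and 24.1% lower. IAA34 (AT1G15050, which lacks the degron that auxin acts on) had 29.6 and 21.5 normalized counts in RiD mock and 584 and 405 in RiD rapamycin (log2 difference 4.21, SE 0.36, adjusted p = 0.000173). IAA26 (AT3G16500) had 1910.5 and 1642 against 721 and 572 (-1.46, SE 0.19, adjusted p = 0.00115). IAA33 (AT5G57420) had 6.48 and 4.81 in RiD mock and 0 in both RiD rapamycin libraries, at least 1.74-fold lower when the rapamycin group is set to its mean level of 3 reads (adjusted p = 0.00728, and 0.0574 without RiD mock 1). IAA9 (AT5G65670) had 8500 and 6443 against 14887 and 11478 (0.82, SE 0.25), and its adjusted p of 0.0499 rose to between 0.0511 and 0.215 in each of the 10 fits without 1 library. With the block 7 were higher and 4 lower, and the count of 4 ranged from 2 to 5 without 1 library. With brassinolide 1 was called higher, IAA34 (177.5 and 101.5 normalized counts, adjusted p = 0.00672), where 4.63% of all loci were. The 1 called lower, where 2.13% of all loci were, was IAA33 (0 and 0.774 normalized counts, under the level of 3 reads, adjusted p = 0.0365). Neither call was kept in every fit without 1 library. With the block 5 were higher and 3 lower with brassinolide, where 14.8% and 12.8% of all loci were. IAA26 was among those lower in that fit (-0.71, adjusted p = 7.78e-05).

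Transcripts of proteins that act with the Aux/IAA repressors formed lists of 6 and 5 genes. So few genes cannot set a count of 0 apart from the share of all loci. Of 6 TIR1/AFB co-receptor genes 0 were called in either RiD response by limma, where 22.0% and 6.76% of all loci were. At an unadjusted p under 0.05 there were 0 and 1, beside 8150 and 4651 of all 23285 loci, with medians of 0.05 and -0.20. With the block 2 were lower in each, where 24.1% and 12.8% of all loci were lower. TIR1 (AT3G62980) in RiD averaged 6013 ± 540 normalized counts with mock, 5006 ± 335 with rapamycin and 4734 ± 427 with brassinolide (SD, n = 2), and AFB2 (AT3G26810) averaged 3060.3 ± 611, 3413 ± 825 and 3290.4 ± 751. Of 5 TOPLESS family genes 0 were called in either, with 0 at an unadjusted p under 0.05 and medians of -0.01 and -0.24. With the block 2 and 0 were lower, beside the same 24.1% and 12.8% of all loci. TPL (AT1G15750), the founding co-repressor, averaged 7821 ± 3723 in RiD mock and 6259 ± 2383 in RiD rapamycin, and TPR1 (AT1G80490) averaged 2808 ± 1137 and 3267 ± 1148.

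Of 15 auxin response factors 1 was called higher and 1 lower with rapamycin, where 12.3% and 9.72% of all loci were, with a median of -0.21. ARF5 (AT1G19850, MONOPTEROS, an activator in embryo and vascular patterning) had 472 and 624 normalized counts in RiD mock and 229.7 and 319.8 in RiD rapamycin (1.999-fold lower, SE 0.21 on the log2 scale, adjusted p = 0.0126), a call lost without RiD mock 2 (adjusted p = 0.0752) or RiD rapamycin 1 (0.0733). ARF10 (AT2G28350), of the repressing class, had 1000.1 and 1058 against 1357 and 1577 (0.51, SE 0.15, adjusted p = 0.0422), and its call was lost in all 10 fits without 1 library, with adjusted p-values of 0.0587 to 0.213, and under both other scalings (0.162 and 0.0818). The count of 2 was 0 or 1 in the 10 fits without 1 library, and with the block 3 were higher and 7 lower. The block fit called 24.1% of all loci higher and 24.1% lower with rapamycin. With brassinolide 0 were called by limma, where 6.76% of all loci were, and the median was -0.22. With the block 5 were lower with brassinolide, where 12.8% of all loci were.

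Of 10 other auxin-induced genes 4 rose and 2 fell with rapamycin in RiD (background 12.3% and 9.72%), with a median of 0.61, and 4 rose and 1 fell with brassinolide (background 4.63% and 2.13%), with a median of 0.66 and a count that ranged from 3 to 5 without 1 library. ACS4 (AT2G22810), an ethylene synthesis gene, in RiD had 1.29 and 0 normalized counts with mock, 178 and 133 with rapamycin and 65.9 and 29.4 with brassinolide, with adjusted p-values of 0.000146 and 0.00192. GH3.1 (AT2G14960) and GH3.2 (AT4G37390) belong to the family that conjugates auxin to amino acids. GH3.1 in RiD had 9.03 and 11.2 with mock, 372 and 482 with rapamycin and 211 and 200.2 with brassinolide (adjusted p = 0.000228 and 0.00206). GH3.2 had 306 and 248, 1915 and 1847, and 1020.1 and 937 in the same groups (adjusted p = 0.0001 and 0.00223). LBD16 (AT2G42430), a lateral root factor downstream of ARFs, went the other way, with 181 and 190.2 for RiD mock, 27.8 and 27.5 for rapamycin and 96.2 and 102.7 for brassinolide. Its log2 difference was -2.70 (SE 0.17, adjusted p = 4.95e-05) with rapamycin. With brassinolide it was -0.89 (SE 0.17, adjusted p = 0.0208), a call lost without RiD mock 1 (adjusted p = 0.0988), RiD mock 2 (0.124), RiD brassinolide 1 (0.148) or RiD brassinolide 2 (0.079).

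**Figure D4:**
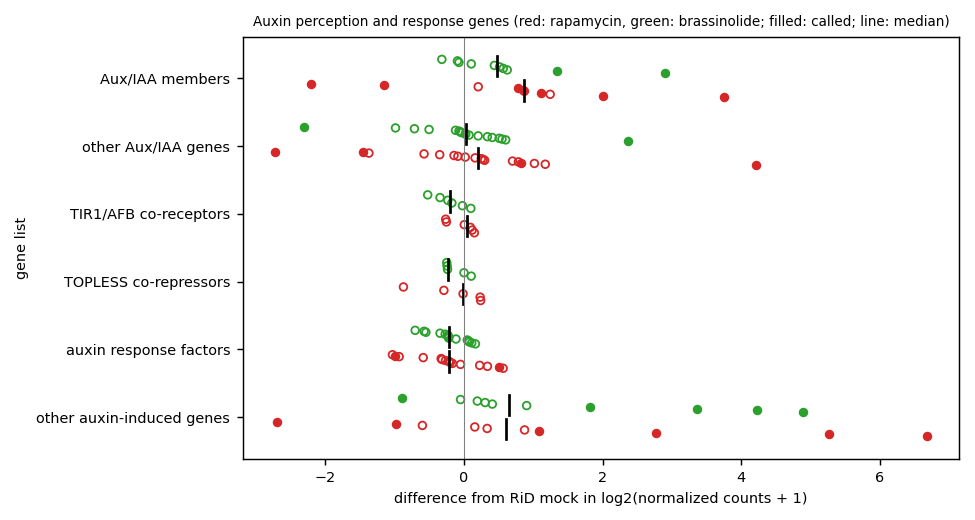
Log2 differences from RiD mock for the genes of auxin perception and response by list (each point is 1 gene, filled when it passed the test, red for rapamycin and green for brassinolide, with a line at the list's median). The 10 Aux/IAA genes have medians of 0.87 and 0.48, the TIR1/AFB and TOPLESS genes hold no filled point, and the auxin-induced genes reach from -2.70 to 6.68 with rapamycin.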

How the data were processed

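The deposited signal values are normalized counts per transcript made by the authors, with Salmon and DESeq2 named in the submitters' processing notes. Their versions and settings, and the build and annotation, are not stated there. Libraries were prepared with a stranded kit, per the labels' protocols. With a tolerance of 0.1 reads, low values up to 20.5 reads lay at whole multiples of 1 read for 51.8 to 99.6% of values per column, so no count test was used. The 40812 transcripts of 10 libraries were summed to 32753 loci, and 0 columns were left without a sample. The 23285 loci that reached 1 normalized count in 2 or more libraries entered limma 3.58.1 (trend, robust moderation) as log2(value + 1), with 5 group means and 5 residual degrees of freedom. Tests across loci were checked on simulated data with independent libraries and no effect of the replicate number. That check does not cover same-numbered libraries that deviate together. The labels do not state whether a group's libraries stem from separate cultures, and the p-values then reflect only how these libraries spread, which may be technical.

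Deviations from group means of same-numbered libraries had correlations of 0.32 to 0.511 over the 10 pairs of groups. What the number marks is not labelled, and the block fit has 4 residual degrees of freedom. The members, lists and alternatives were chosen with earlier results of these data known. All 10 members are described, up to 4 called genes of each list by size of change in RiD rapamycin against RiD mock (or the 2 most abundant where none was called), and the 3 loci most like IAA19 and IAA29. Sequences, coordinates and lengths came from RefSeq on TAIR10.1 by locus tag, coding sequences were aligned with Biopython 1.88, and the lengths of the table's transcripts were taken from the same annotation.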

Additional observations from a re-analysis of the deposited data

Results flagged for a closer look

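The response to rapamycin differed between RiD and Col-0, by a test of the difference itself, for 6 of the 10 Aux/IAA genes. Of all loci 10.1% were called there, 6.49% higher and 3.56% lower. The calls of IAA1 and IAA7 were not kept in every fit without 1 library, as described above. In those fits the log2 difference of the responses ran from 0.76 to 0.96 for IAA1 and from -1.21 to -0.97 for IAA7. The log2 difference of the responses, RiD minus Col-0, was 4.66 for IAA6, 2.38 for IAA19, 1.26 for IAA3, 0.86 for IAA1, -1.09 for IAA7 and -1.96 for IAA29. The direction was the same within library numbers 1 and 2 for each of these 6 genes, at 4.79 and 4.53 for IAA6, 2.19 and 2.57 for IAA19, 1.22 and 1.30 for IAA3, 0.94 and 0.78 for IAA1, -1.21 and -0.97 for IAA7 and -1.60 and -2.31 for IAA29. These values come from the same libraries as the test, and groups of 2 libraries are too small to flag single libraries.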

How the results depend on the processing

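Of 70 differences of the 10 genes over 7 comparisons, 56 kept direction and call with the replicate number as a block and 14 were newly called. In the fits that left out 1 library 652 of 700 kept both, and among the other alternatives (pseudocounts of 0.5 and 5, no filter, a mean of at least 10, total and quantile scaling, no robust moderation, the most abundant transcript) 545 of 553, with 3 calls lost under total scaling: IAA1 in rapamycin against brassinolide (adjusted p = 0.0552), IAA1 in the difference of responses (0.0826) and IAA14 between the lines under rapamycin (0.0507). The sign changed in 18 of the 700 and 5 of the 553, for differences of IAA1, IAA2, IAA5, IAA7, IAA14 and IAA17 that were called neither with all libraries nor there. The mean filter removed IAA5. With the replicate block 5 genes were called for brassinolide against mock, 7 for rapamycin against brassinolide, 1 for RiD mock against Col-0 mock, 8 for rapamycin against mock in RiD, 9 for the difference of responses and 9 between the lines under rapamycin, where the fit without it called 2, 3, 0, 7, 6 and 7. Without 1 library, the counts ran from 6 to 7 for rapamycin against mock in RiD, 1 to 2 for brassinolide, 1 to 3 for rapamycin against brassinolide, 4 to 5 for the difference of responses and 6 to 8 between the lines under rapamycin. Over all loci the block called 11215 in place of 5120 for rapamycin and 6424 in place of 1575 for brassinolide in RiD, and single left-out libraries gave 2929 to 4672 and 478 to 1320. Total scaling moved the median difference of all loci from -0.03 to -0.16 for rapamycin in RiD. Depth limits IAA5, whose levels stood near 3 reads.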
